A study of Mus musculus with 8 samples.

Results

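The 10 immediate-early response genes described here are Fos, Jun, Junb, Egr1, Egr2, Egr3, Ier3, Klf6, Zfp36 and Dusp1, a list chosen by gene name out of 16593 genes with a named probe on the arrays. They carried 11 of the 25697 probes, 1 per gene except for Klf6 with 2, and all 10 were among the 9915 genes that passed the detection filter and were tested. RNA came from the mouse embryonic stem cell line E14TG2a in 4 groups of 2 Illumina BeadChip arrays. The ES group was the undifferentiated line, kept in GMEM with 10% serum and LIF-conditioned medium. The IDE2 group received 1 uM IDE2, a small molecule inducer of definitive endoderm, through 11 days of culture in an Iscove and Ham F12 medium with N2, B27 and 1% serum. The IDE2+FGF2 group received 1 uM IDE2 for 6 days and then FGF2 at 500 ng/ml for 5 days, and the IDE2+FGF10 group had the same 6 days of IDE2 followed by FGF10 at 25 ng/ml for 5 days. All groups came from this 1 line, no 11-day culture without IDE2 was analysed here, and both differentiation with IDE2 and the change of medium and serum separate every treated group from ES. The FGF doses differed, so growth factor and dose cannot be told apart. Both FGF groups also left IDE2 after 6 days, and no group had 6 days of IDE2 followed by no factor. Against the IDE2 group, adding an FGF and withdrawing IDE2 therefore cannot be told apart. The labels give no interval between the last medium change and harvest, and they do not call the paired arrays separate cultures. The p-values therefore measure the spread between arrays, which may be technical.

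Immediate-early genes are transcribed within minutes of a stimulus such as serum, a growth factor or stress, without new protein synthesis. Growth factor receptors reach them through the RAS, RAF, MEK and ERK kinases, which act on factors already bound at the promoters: serum response factor (SRF) with its ETS partners at CArG boxes, and CREB or ATF proteins at cyclic AMP response elements. Their products include the AP-1 and EGR transcription factors and a set of feedback proteins, among them the MAP kinase phosphatase DUSP1 and the mRNA decay factor tristetraprolin, encoded by Zfp36.

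Promoters of Fos, Egr2, Zfp36 and Dusp1 are shown for their matches to the letters of such response elements. Each is the 200 bases upstream of a transcription start in RefSeq, build GRCm38.p6, written 5′ to 3′ on the strand of the gene, with the searched motifs in capitals.
Fos, chr12:85473690-85473889, plus strand: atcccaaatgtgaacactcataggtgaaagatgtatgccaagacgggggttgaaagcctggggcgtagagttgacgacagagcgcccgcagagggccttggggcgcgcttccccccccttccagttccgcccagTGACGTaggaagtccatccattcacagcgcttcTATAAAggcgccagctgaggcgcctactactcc
Egr2, the third of 5 listed starts, chr10:67537669-67537868, plus strand: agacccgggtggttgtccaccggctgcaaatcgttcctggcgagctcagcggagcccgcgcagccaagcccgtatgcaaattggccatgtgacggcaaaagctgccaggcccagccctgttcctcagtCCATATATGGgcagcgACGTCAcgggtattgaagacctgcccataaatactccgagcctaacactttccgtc
Zfp36, chr7:28379229-28379428, minus strand: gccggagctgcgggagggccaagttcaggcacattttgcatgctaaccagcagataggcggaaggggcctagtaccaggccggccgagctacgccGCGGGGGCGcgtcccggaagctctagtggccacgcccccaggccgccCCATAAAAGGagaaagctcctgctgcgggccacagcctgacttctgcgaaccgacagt
Dusp1, chr17:26508473-26508672, minus strand: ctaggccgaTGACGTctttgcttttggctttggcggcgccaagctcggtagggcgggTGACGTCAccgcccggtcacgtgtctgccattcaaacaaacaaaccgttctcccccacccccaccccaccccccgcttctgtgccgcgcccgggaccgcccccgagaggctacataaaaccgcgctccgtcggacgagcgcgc
In Fos the capitals mark TGACGT, the core of a cyclic AMP response element, at −66 and TATAAA at −33, both counted from the start site. In Egr2 they mark a CArG box at −72 and TGACGT, read on the other strand, at −56. In Zfp36 the EGR site GCGNGGGCG lies at −105 and a CArG box at −58. In Dusp1 the complete palindrome TGACGTCA lies at −143 and a further TGACGT at −191. Promoters of 8 of the 10 genes were searched on both strands, over 250 bases before and 50 after each start, in 12 windows, of which 5 belong to Egr2 and partly overlap. A gene is counted when any of its windows holds the motif, and all promoters are given both as 27025 genes counted that way and as 32851 windows. A CArG box (CC, then 6 bases that are each A or T, then GG) was found in 2 of the 8 genes, in 1.81% of all genes and in 1.63% of all windows. TGACGT was found in 3 of the 8 (8.37% of genes, 7.51% of windows) and TGACGTCA, which contains it, in 1 (2.03% and 1.79%). TATAAA was found in 2 (15.7% and 13.6%) and GCGNGGGCG in 1 (6.27% and 5.55%). The AP-1 site TGANTCA was found in none of the 12 windows, in 8.97% of all genes and in 7.81% of all windows. A match describes the letters of this window and was not tested as a binding site. Sites outside the window were not searched, so a gene without a match here may hold one further away.

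Raw signals were not equal across arrays before normalization. Median raw signals lay between 117 and 175, 45.2 to 52.2% of probes were detected above background (fewest on the IDE2+FGF10 arrays, 45.2 and 46.2%), and each of these genes was read from 24 to 64 beads, with a bead standard error of 2.54 to 7.98% of its signal. All groups held 2 arrays, so each gene had a single standard error of its log2 change in all 6 comparisons: 0.29 for Fos and Dusp1, 0.41 for Jun, 0.59 for Junb, 0.27 for Egr1, 0.34 for Egr2 and Egr3, 0.43 for Ier3, 0.26 for Klf6 and 0.37 for Zfp36. Levels below are background-corrected, quantile-normalized log2 intensities, and differences are in log2 units. The correction adds an offset, so a change of a dim probe is understated, and levels of different genes are not compared. The replicate arrays stood further apart in the IDE2 and IDE2+FGF2 groups than in the others: 15.7% and 10.3% of genes differed by over 2-fold between the replicates, against 1.78% in ES and 1.82% in IDE2+FGF10. Among the immediate-early genes, Jun and Ier3 differed by over 2-fold between the IDE2 arrays and Junb between the IDE2+FGF2 arrays.

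**Figure D1:**
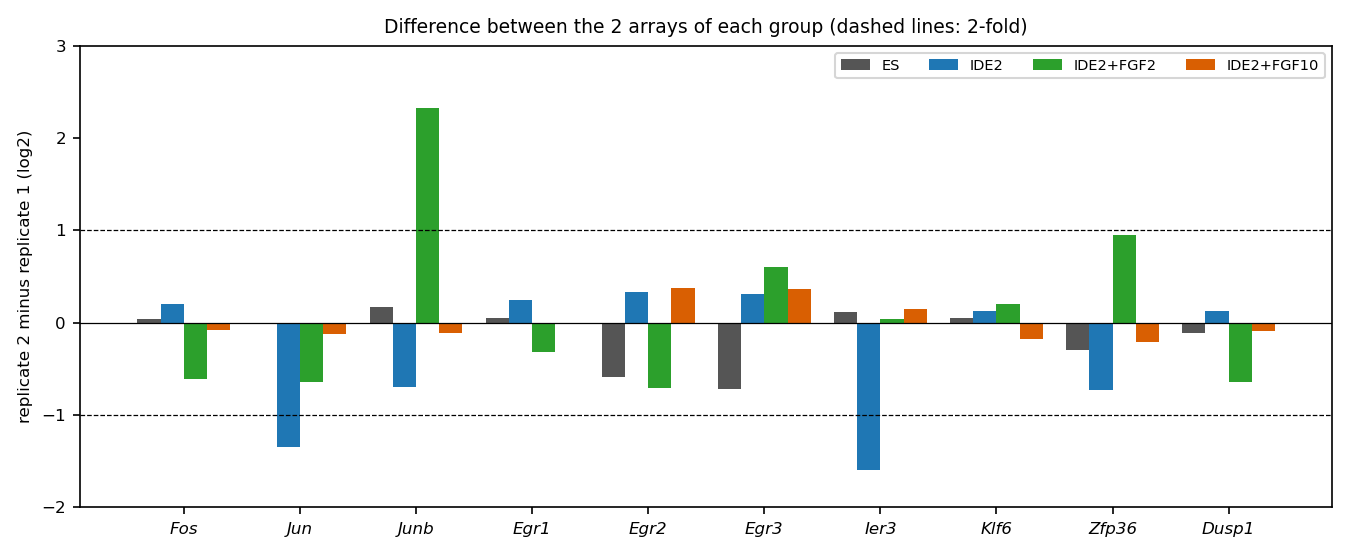
Difference in log2 level between replicate 2 and replicate 1 (y axis) for each of the 10 genes (x axis), with 1 bar per group and dashed lines at a 2-fold difference. The bars pass the dashed lines for Jun and Ier3 in IDE2 and for Junb in IDE2+FGF2, and the SD pooled over the 10 genes was 0.23 in ES, 0.54 for IDE2, 0.65 for IDE2+FGF2 and 0.14 for IDE2+FGF10.

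The AP-1 genes Fos and Jun were lowest in undifferentiated cells and highest after FGF10. Fos, the founding partner of the AP-1 dimer, measured 7.18 and 7.21 in ES, 9.21 and 9.41 in IDE2, 9.99 and 9.37 in IDE2+FGF2, and 10.74 and 10.66 in IDE2+FGF10. Both ES arrays lay below every other array, both IDE2+FGF10 arrays lay above every other, and the IDE2 and IDE2+FGF2 arrays overlapped. Fos was 4.32-fold higher in IDE2 than in ES (log2 change 2.11 ± 0.29 SE, adjusted p = 0.000247), 5.59-fold higher in IDE2+FGF2 (2.48, adjusted p = 0.000137) and 11.4-fold higher in IDE2+FGF10 (3.51, adjusted p = 1.17e-05). The step from IDE2 to IDE2+FGF10 also passed (1.39, 2.63-fold, adjusted p = 0.0158), whereas those from IDE2 to IDE2+FGF2 (0.37, adjusted p = 0.447) and from IDE2+FGF2 to IDE2+FGF10 (1.02, adjusted p = 0.0599) did not. Without background correction the rises over ES were 1.87 in IDE2+FGF2 and 2.82 in IDE2+FGF10.

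Jun, which can dimerize with FOS or with itself, measured 6.18 and 6.16 in ES, 8.42 and 7.07 in IDE2, 7.84 and 7.20 in IDE2+FGF2, and 9.39 and 9.27 in IDE2+FGF10. The order of the arrays was the same at the ends as for Fos, with ES at the bottom and IDE2+FGF10 at the top, and the IDE2 and IDE2+FGF2 arrays overlapped. Jun rose against ES in all 3 comparisons, 2.99-fold in IDE2 (1.58, adjusted p = 0.01), 2.56-fold in IDE2+FGF2 (1.36, adjusted p = 0.0267; 0.71 and not passing without background correction) and 8.94-fold in IDE2+FGF10 (3.16, adjusted p = 0.000162). IDE2+FGF10 exceeded IDE2 by 2.99-fold (adjusted p = 0.0315) and IDE2+FGF2 by 3.49-fold (adjusted p = 0.0281), and IDE2+FGF2 and IDE2 did not separate (−0.23, adjusted p = 0.766). The rise in IDE2 over ES was 0.91 without IDE2 replicate 1 and 2.26 without replicate 2, 0.88 without background correction, and it did not pass without either ES array (adjusted p = 0.0532 and 0.0544). The difference of IDE2+FGF10 from IDE2 was 2.26 without IDE2 replicate 1, and 0.91 without replicate 2, where it did not pass.

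Junb, a JUN family member with weaker transforming activity than JUN, ran the other way in IDE2. It measured 9.72 and 9.89 in ES, 7.36 and 6.66 in IDE2, 7.52 and 9.83 in IDE2+FGF2, and 8.89 and 8.77 in IDE2+FGF10. The IDE2 arrays were the lowest of all 8, and the IDE2+FGF2 arrays spanned most of the distance between IDE2 and ES. Relative to ES, Junb fell 6.93-fold in IDE2 (−2.79 ± 0.59, adjusted p = 0.0031), the only fall against ES among the 10 genes. The raw Junb signals of the IDE2+FGF2 arrays were 280 with a bead SE of 20.0 and 1371 with a bead SE of 84.9, so the gap between these arrays exceeded the error over beads. The within-group SD of Junb (0.86) was larger than that of 99.2% of genes tested, and its changes of −1.13 (adjusted p = 0.164) and −0.98 (adjusted p = 0.2) in IDE2+FGF2 and IDE2+FGF10 against ES did not pass. The first of these depended on the array kept: it was 0.030 without IDE2+FGF2 replicate 1, and −2.30 and past the threshold (adjusted p = 0.00324) without replicate 2. Without background correction the fall in IDE2 was 2.08 on the log2 scale.

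The 3 EGR genes encode zinc-finger factors that bind GC-rich sites and behaved differently from each other. Egr1, the most broadly induced of the family, measured 10.86 and 10.91 in ES, 10.16 and 10.41 in IDE2, 11.26 and 10.94 in IDE2+FGF2, and 11.36 and 11.35 in IDE2+FGF10. Both IDE2 arrays were the lowest and both IDE2+FGF10 arrays the highest. This order depends on the normalization: the raw signals were 2005 and 2036 in IDE2+FGF10 and 2589 and 2667 in IDE2+FGF2. IDE2+FGF10 exceeded IDE2 by 2.10-fold (1.07, adjusted p = 0.0283; 0.86 and not passing with median scaling), and no other comparison of Egr1 passed, with changes between −0.60 and 0.82.

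Egr2, known for its role in hindbrain patterning and myelination, had the widest range of the 10 genes, 4.66 between group means, wider than that of 99.2% of genes tested. It measured 5.94 and 5.35 in ES, the second of these not detected above background, 10.13 and 10.46 in IDE2, 6.24 and 5.53 in IDE2+FGF2, and 8.62 and 8.99 in IDE2+FGF10. The IDE2 arrays were the highest and the IDE2+FGF10 arrays were second, while the IDE2+FGF2 arrays overlapped ES. Over ES, Egr2 rose 25.2-fold in IDE2 (4.66 ± 0.34, adjusted p = 5.92e-06) and 8.94-fold in IDE2+FGF10 (3.16, adjusted p = 5.4e-05), with no passing difference in IDE2+FGF2 (0.25, adjusted p = 0.621). Against IDE2 it fell 21.3-fold in IDE2+FGF2 (−4.41 ± 0.34, adjusted p = 0.000113) and 2.82-fold in IDE2+FGF10 (−1.49, adjusted p = 0.0201). IDE2+FGF10 was 7.54-fold above IDE2+FGF2 (2.92, adjusted p = 0.00161). Since ES and IDE2+FGF2 lay near background, the sizes depended on the background correction: without it the log2 changes were 3.14 and 1.83 over ES in IDE2 and IDE2+FGF10, −3.04 in IDE2+FGF2 against IDE2 and 1.74 between the FGF groups, all past the threshold.

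Egr3, a close relative of Egr1 known from activated neurons and lymphocytes, was detected on 3 of the 8 arrays. It measured 6.06 and 5.35 in ES, 5.30 and 5.60 in IDE2, 5.06 and 5.66 in IDE2+FGF2, and 4.89 and 5.26 in IDE2+FGF10. All 8 values were near the background and the groups overlapped except for IDE2+FGF10, which lay below ES and below IDE2. No difference passed (largest −0.63, IDE2+FGF10 against ES, adjusted p = 0.162).

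**Figure D2:**
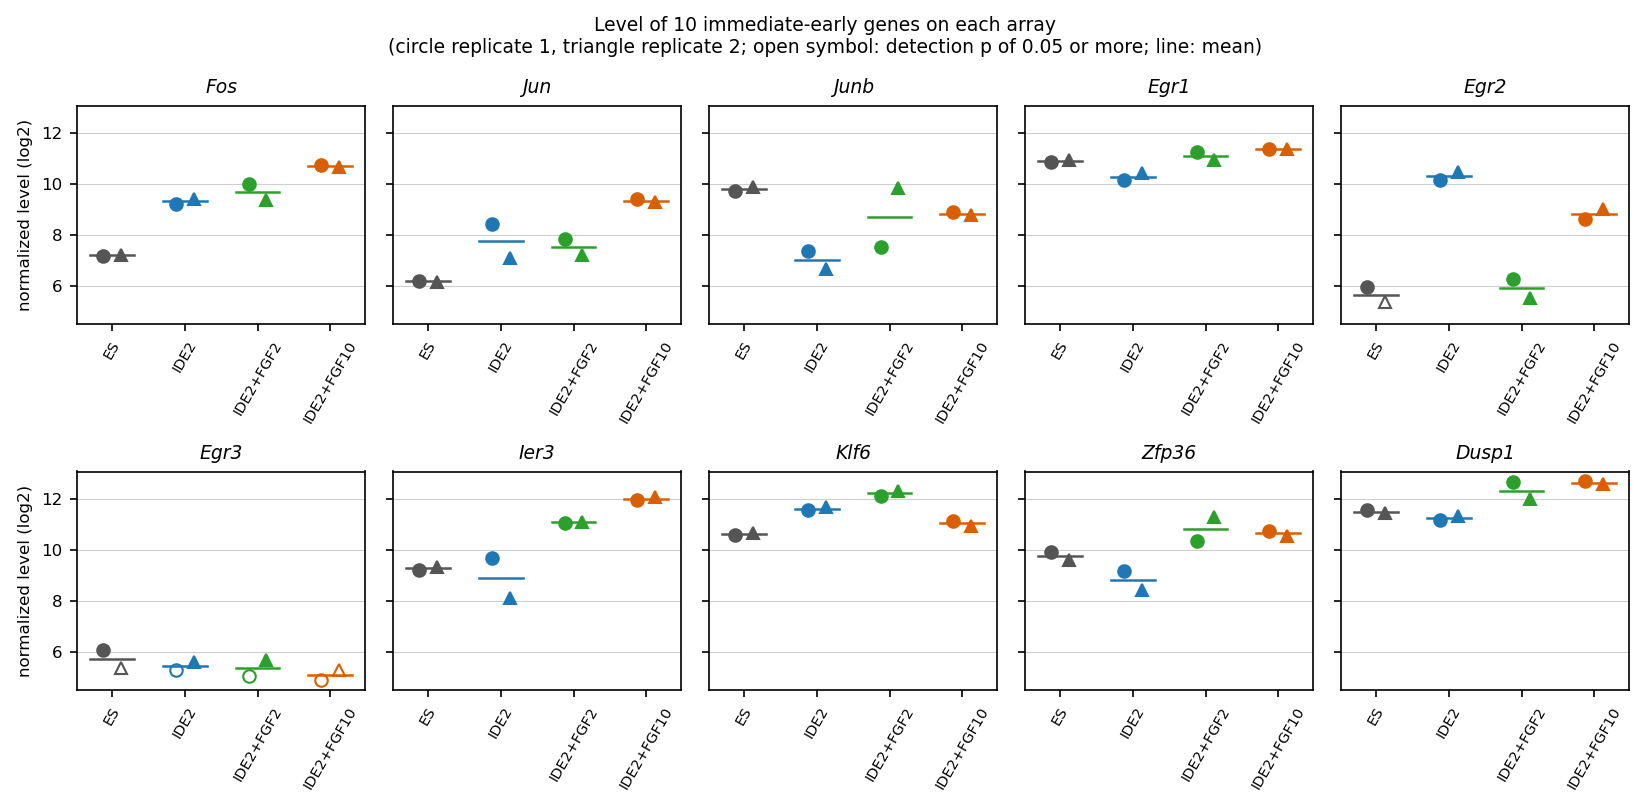
Log2 level (y axis) of each of the 10 genes on the 8 arrays, by group; circles are replicate 1 and triangles replicate 2, filled where detected above background and open where not, and lines mark group means. Fos and Jun are lowest in ES and highest in IDE2+FGF10, Egr2 is highest in IDE2, and Junb spreads from 7.52 to 9.83 in IDE2+FGF2.

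Ier3 and Klf6 are stress- and growth-factor-responsive genes outside the AP-1 and EGR families. Ier3, which encodes a small membrane-associated regulator of apoptosis and of ERK signalling, measured 9.21 and 9.32 in ES, 9.69 and 8.09 in IDE2, 11.06 and 11.10 in IDE2+FGF2, and 11.93 and 12.08 in IDE2+FGF10. Both FGF groups lay above every ES and IDE2 array, and the IDE2 arrays lay on either side of ES. Ier3 was higher than in ES by 3.51-fold in IDE2+FGF2 (1.81, adjusted p = 0.00844) and 6.69-fold in IDE2+FGF10 (2.74, adjusted p = 0.000544). It was higher than in IDE2 by 4.55-fold in IDE2+FGF2 (2.19 ± 0.43, adjusted p = 0.0173) and 8.67-fold in IDE2+FGF10 (3.12 ± 0.43, adjusted p = 0.00773). The last of these was larger than the change of 99.96% of genes tested. Without IDE2 replicate 2, the lower of its arrays, these differences were 1.40 and 2.35, and without replicate 1 they were 2.99 and 3.92. IDE2 and ES did not separate (−0.38, adjusted p = 0.507), and this difference was 0.42 without IDE2 replicate 2.

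Klf6, a zinc-finger factor with growth-restraining roles, measured 10.60 and 10.64 in ES, 11.55 and 11.68 in IDE2, 12.11 and 12.32 in IDE2+FGF2, and 11.13 and 10.95 in IDE2+FGF10 on its brighter probe. The groups did not overlap and stood in the order ES, IDE2+FGF10, IDE2, IDE2+FGF2, but no neighbouring pair in that order differed past the threshold (steps of 0.42, 0.57 and 0.60). Over ES, Klf6 rose 1.99-fold in IDE2 (0.99, adjusted p = 0.0109; 0.77 and not passing with median scaling) and 3.02-fold in IDE2+FGF2 (1.59, adjusted p = 0.00109), and IDE2+FGF10 was 2.25-fold below IDE2+FGF2 (−1.17, adjusted p = 0.0266). The dimmer Klf6 probe gave another picture for FGF10. It measured 6.31 and 6.51 in ES, 7.72 and 7.98 in IDE2, 8.18 and 7.39 in IDE2+FGF2, and 7.76 and 7.30 in IDE2+FGF10, so that IDE2+FGF10 overlapped IDE2+FGF2 (−0.25, adjusted p = 0.685) and exceeded ES (1.12, adjusted p = 0.0196). The 2 probes therefore differ on whether Klf6 was lower after FGF10 than after FGF2.

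The feedback genes Zfp36 and Dusp1 both had their lowest mean in IDE2, though neither was below ES past the threshold. Zfp36, whose product binds AU-rich elements and speeds the decay of cytokine and immediate-early mRNAs, measured 9.90 and 9.60 in ES, 9.15 and 8.43 in IDE2, 10.35 and 11.30 in IDE2+FGF2, and 10.75 and 10.55 in IDE2+FGF10. The IDE2 arrays were the lowest, every FGF array exceeded every ES array, and the FGF groups overlapped each other. Zfp36 was 4.09-fold higher in IDE2+FGF2 than in IDE2 (2.03, adjusted p = 0.0118) and 3.63-fold higher in IDE2+FGF10 than in IDE2 (1.86, adjusted p = 0.0137). Against ES it was 2.10-fold higher in IDE2+FGF2 (1.07, adjusted p = 0.0458), and the changes in IDE2 (−0.96, adjusted p = 0.0559) and IDE2+FGF10 (0.90, adjusted p = 0.0719) did not pass. The rise in IDE2+FGF2 over ES kept its call in only 10 of 20 alternatives, with log2 changes from 0.60 to 1.54. Among others it did not pass with median scaling, with no detection filter or with the replicate number as a block (adjusted p = 0.0537). It was 0.60 without IDE2+FGF2 replicate 2.

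Dusp1, which dephosphorylates ERK, JNK and p38, measured 11.55 and 11.44 in ES, 11.18 and 11.31 in IDE2, 12.64 and 12.00 in IDE2+FGF2, and 12.68 and 12.59 in IDE2+FGF10. All 4 FGF arrays lay above the ES and IDE2 arrays, and the FGF groups overlapped. Dusp1 was 2.20-fold higher in IDE2+FGF10 than in ES (1.14, adjusted p = 0.00947) and 2.62-fold higher than in IDE2 (1.39, adjusted p = 0.0161). The corresponding changes in IDE2+FGF2, 0.82 and 1.08, both had an adjusted p of 0.0514. Of 20 alternatives, the first of these stayed short of the threshold in 9 and the second in 14. The rise in IDE2+FGF10 over ES kept its call in 16 of 20, so the calls do not separate the FGF groups for Dusp1. IDE2 and ES did not separate for Dusp1 (−0.25, adjusted p = 0.508).

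Against ES, 5 of the 10 genes passed in each treated group, and only Fos and Jun rose in all 3 on the probes used. The dimmer Klf6 probe, fitted as its own row, also rose in all 3 (1.44, 1.37 and 1.12, largest adjusted p = 0.0196). In IDE2 the genes Fos, Jun, Egr2 and Klf6 rose and Junb fell. In IDE2+FGF2 the genes Fos, Jun, Ier3, Klf6 and Zfp36 rose, and in IDE2+FGF10 the genes Fos, Jun, Egr2, Ier3 and Dusp1 rose. These comparisons moved a large share of the transcriptome: 45.3% of genes passed in IDE2 (23.1% up and 22.2% down), 34.5% in IDE2+FGF2 (17.8% up and 16.8% down) and 45.1% in IDE2+FGF10 (22.2% up and 22.8% down). With 5 of 10 called each time, the number of passing immediate-early genes was near that background in IDE2 and IDE2+FGF10, and no test sets it apart in IDE2+FGF2. The median change of the 10 genes was −0.25 with IDE2 alone, 0.95 after FGF2 and 1.02 after FGF10, beside −0.01 over all genes in each. The 3 comparisons share the ES arrays. Leaving out either ES array took calls from the 10 genes in all 3 comparisons. Leaving out either IDE2+FGF2 array did so in IDE2+FGF2, and leaving out either IDE2+FGF10 array took the call of Dusp1 in IDE2+FGF10. Without ES replicate 1, fewer of all genes passed as well. Replicates did not overlap for 8 of the 10 genes in IDE2 (72.9% of all genes), 7 in IDE2+FGF2 (70%) and 10 in IDE2+FGF10 (81.5%).

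**Figure D3:**
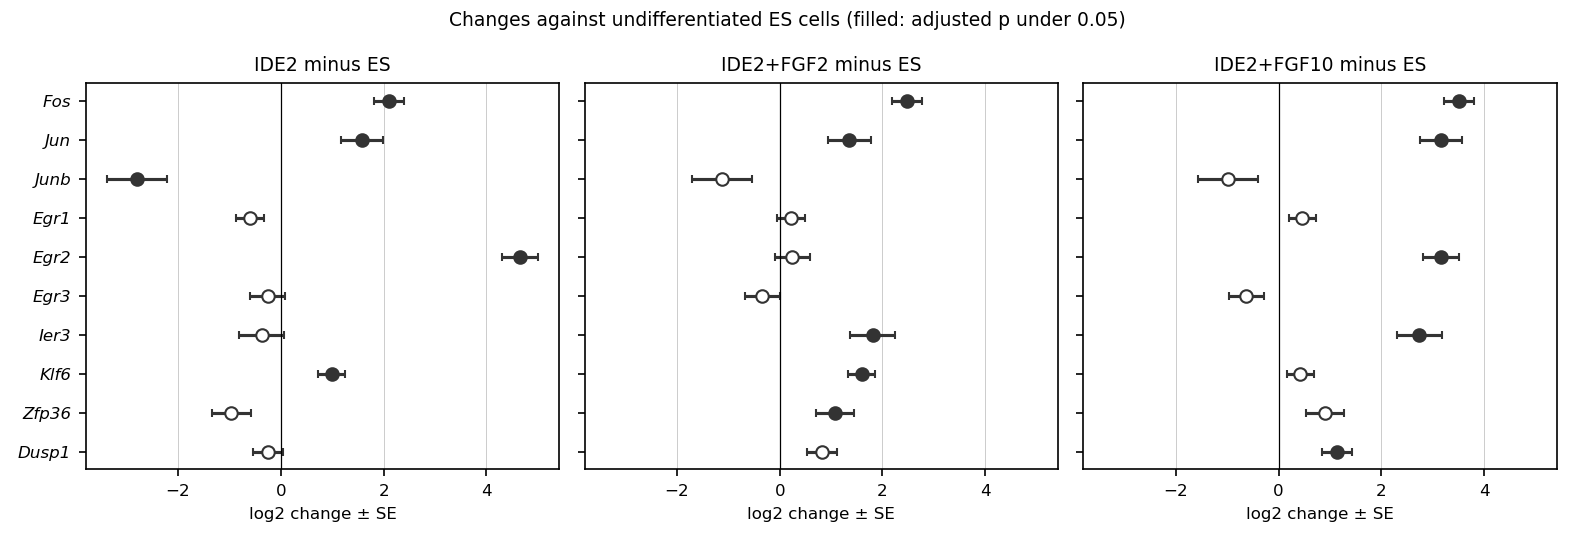
Log2 change against ES (x axis) of the 10 genes in IDE2, IDE2+FGF2 and IDE2+FGF10, with standard errors; filled points passed an adjusted p of 0.05 and open points did not. Fos and Jun are filled in all 3 groups, Egr2 stands at 4.66 in IDE2 and 0.25 in IDE2+FGF2, and Junb is the filled point below 0.

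With FGF2 after IDE2, compared with continued IDE2, Ier3 rose 4.55-fold, Zfp36 rose 4.09-fold and Egr2 fell 21.3-fold. This comparison covers the switch from IDE2 to FGF2, so adding FGF2 and withdrawing IDE2 cannot be told apart. Of 9915 genes, 7.5% passed, 3.7% up and 3.8% down, and 3 of the 10 immediate-early genes did. The median change of the 10 was 0.71, against 0.02 over all genes. Dusp1 (1.08), Junb (1.66, adjusted p = 0.104), Egr1 (0.82, adjusted p = 0.0895) and Klf6 (0.60, adjusted p = 0.177) were higher without passing. The replicates did not overlap for 7 of the 10 genes and for 48.2% of all genes. Egr2 alone passed without IDE2+FGF2 replicate 2, when 105 genes passed in all.

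The comparison of FGF10 after IDE2 with continued IDE2 had the largest number of passing immediate-early genes among the 6 made: Fos, Jun, Egr1, Ier3, Zfp36 and Dusp1 rose and Egr2 fell. The rises ran from 2.10-fold for Egr1 to 8.67-fold for Ier3. In this comparison 13.9% of all genes passed, 4.13% up and 9.76% down, against 7 of the 10 immediate-early genes, 6 up and 1 down. Their median change was 1.39 beside 0.06 over all genes. Junb was 1.82 higher without passing (adjusted p = 0.0624), and Klf6 (−0.57, adjusted p = 0.161) and Egr3 (−0.37, adjusted p = 0.487) were lower without passing. The replicates did not overlap for any of the 10 genes, nor for 65.5% of all genes. The calls rest on both FGF10 arrays and, for all but Ier3, on IDE2 replicate 2. Those of Jun and Egr1 were also lost without either ES array, and that of Jun without either IDE2+FGF2 array. Of 20 alternatives, Jun kept its call in 11 and Egr1 in 13. Without either FGF10 array almost none of all genes tested passed, so that loss was not particular to the 10. The 7 log2 changes kept their direction in all 20 alternatives tried.

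**Figure D4:**
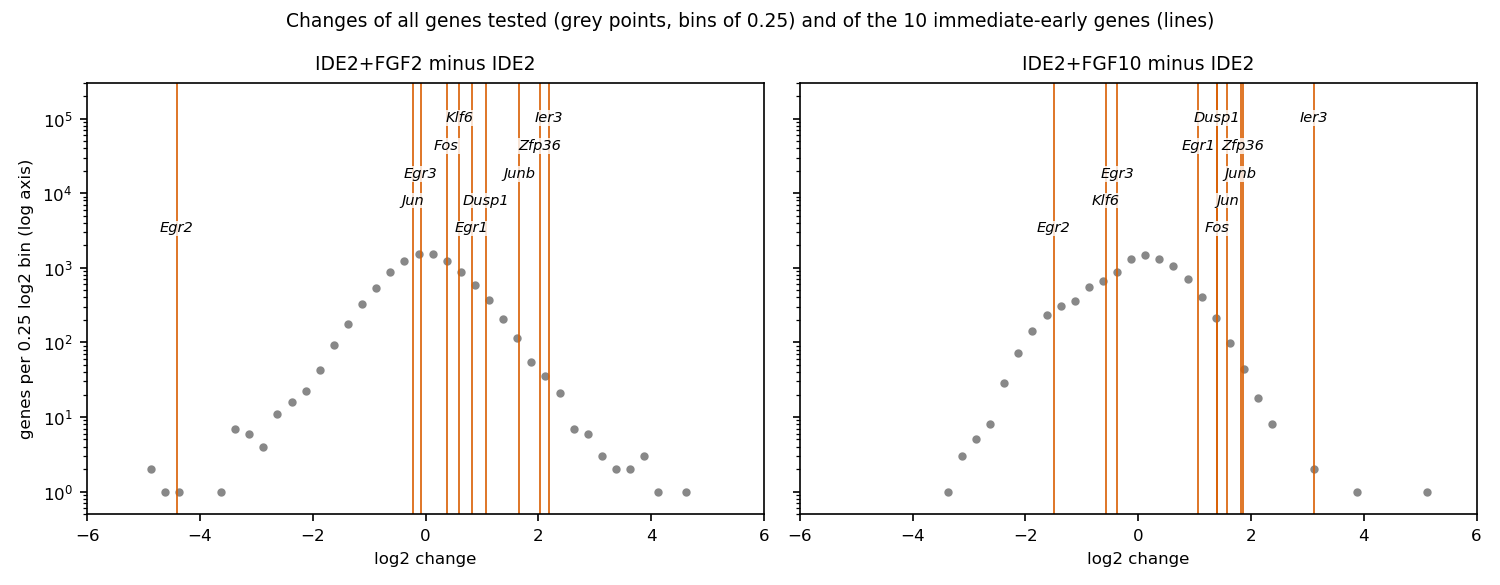
Number of genes (y axis, log scale) per bin of 0.25 in log2 change (x axis) for IDE2+FGF2 minus IDE2 and IDE2+FGF10 minus IDE2, as grey points, with vertical lines at the 10 genes. In the first, Egr2 at −4.41 stands in the far left tail; in the second, 7 lines lie above 1 and Ier3 stands at 3.12.

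Between the FGF groups, Jun was 3.49-fold and Egr2 7.54-fold higher after FGF10 than after FGF2, and Klf6 was 2.25-fold lower on its brighter probe. The doses were 25 ng/ml of FGF10 and 500 ng/ml of FGF2. In this comparison 7.31% of all genes passed, 2.6% up and 4.71% down, and 3 of the 10 immediate-early genes did. The median change of the 10 was 0.28, against 0.000106 over all genes, and the replicates did not overlap for 6 of the 10 genes and 59.7% of all genes. Fos (1.02), Ier3 (0.93, adjusted p = 0.205), Egr1 (0.25, adjusted p = 0.606), Dusp1 (0.31, adjusted p = 0.553), Zfp36 (−0.17, adjusted p = 0.809), Junb (0.15, adjusted p = 0.896) and Egr3 (−0.28, adjusted p = 0.653) did not pass. The calls of Jun and Klf6 were lost without either ES array, either FGF10 array or IDE2+FGF2 replicate 2, and that of Egr2 was kept. The number of all genes passing moved widely with the arrays left out too. Over the 20 alternatives the log2 change ran from 1.29 to 2.13 for Jun, −1.49 to −0.71 for Klf6 and 1.74 to 3.27 for Egr2.

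**Figure D5:**
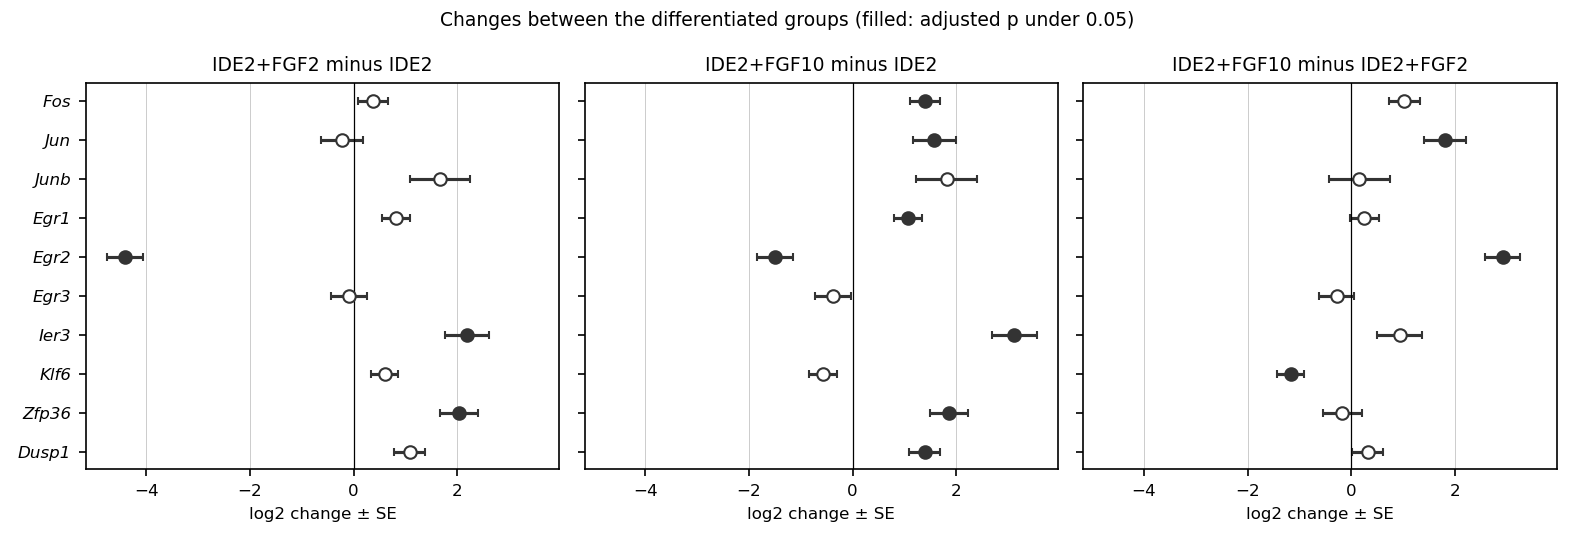
Log2 change (x axis) of the 10 genes in the comparisons among the treated groups, with standard errors; filled points passed an adjusted p of 0.05. In IDE2+FGF10 minus IDE2, 6 filled points lie above 0 and Egr2 lies below, and in IDE2+FGF2 minus IDE2, Egr2 lies at −4.41.

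Other immediate-early genes moved in both directions. Of 45 further genes listed, 42 had a probe and 31 were tested. Fosb, Fosl1 and Nr4a1 were detected on none of the 8 arrays, Ier2 on 1, and Fosl2 had no probe with its name here. Against ES, 8 rose and 12 fell in IDE2 (all genes 23.1% and 22.2%), 12 rose and 10 fell in IDE2+FGF2 (17.8% and 16.8%), and 12 rose and 9 fell in IDE2+FGF10 (22.2% and 22.8%), so that the 8 rises in IDE2 were near the share over all genes. The median change of the 31 was −0.03, 0.26 and 0.17, beside −0.01 over all genes in each. The growth arrest gene Gadd45g rose 6.37-fold with IDE2 alone, 7.46-fold after FGF2 and 15.1-fold after FGF10. Atf3, a stress-induced partner of AP-1, was not detected in ES and was at least 4.94-fold higher in IDE2, at least 6.06-fold higher in IDE2+FGF2 and at least 17.8-fold higher in IDE2+FGF10. The largest falls were those of Klf2 (42.5-fold in IDE2, 12.6-fold in IDE2+FGF2 and 45.6-fold in IDE2+FGF10) and Klf4 (27.1-fold, 10.6-fold and 25.0-fold), both also factors of the pluripotent state. Myc was 3.56-fold lower in IDE2 and 3.58-fold lower in IDE2+FGF2 than in ES, and at least 3.82-fold lower in IDE2+FGF10.

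Against IDE2, 8 of these 31 genes rose in IDE2+FGF2 (3.7% of all genes) and, in IDE2+FGF10, 7 rose and 2 fell (4.13% and 9.76% of all genes), with median changes of 0.48 and 0.40 beside 0.02 and 0.06 over all genes. With FGF2 the largest rises were those of Per1, a clock gene (4.69-fold), and Ccn1, a secreted matricellular protein (4.52-fold). With FGF10 the largest were Gadd45b (5.27-fold) and Per1 (3.79-fold), and Sgk1 (2.98-fold) and Irf1 (2.25-fold) fell. Atf3 rose 3.61-fold with FGF10 (adjusted p = 0.0114). In IDE2+FGF10 against IDE2+FGF2, where 2.6% of all genes rose and 4.71% fell, 2 rose, Gadd45b (3.35-fold) and Atf3 (2.94-fold), and 5 fell (median −0.33 beside 0.000106 over all genes), with the largest falls in Klf2 (3.62-fold) and Sgk1 (3.31-fold).

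The signalling and regulatory partners were uneven. Of the AP-1 family partners, 7 of 15 were tested. Besides Atf3, Maff, a small MAF protein, rose against IDE2 in both FGF groups (2.46-fold and 3.32-fold), Batf3 rose 3.29-fold with FGF10, and Atf2, a CREB family partner of JUN, fell 4.72-fold with FGF10. Jund, the constitutive JUN protein, fell 3.72-fold in IDE2 against ES. Of the EGR corepressors, Nab1 fell 4.99-fold in IDE2+FGF10 against IDE2, and Nab2, which EGR factors induce, stayed between 5.46 and 6.77 on all arrays without passing in any comparison. Srf measured 9.68 and 10.03 in ES and 11.04 and 11.30 in IDE2+FGF10, a 2.48-fold rise. Of 13 tested ERK, JNK and p38 cascade genes, 5 rose and 2 fell in IDE2 against ES (median 0.62), near the 45.3% of all genes that passed there, and against IDE2 with FGF10 only Nras (2.22-fold) and Mapk8 (2.89-fold) passed, both lower.

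Among 8 tested dual specificity phosphatases other than Dusp1, the nuclear ERK phosphatase gene Dusp4 differed most between the FGF groups. It measured 10.58 and 10.53 in ES, 9.30 and 9.32 in IDE2, 12.84 and 13.26 in IDE2+FGF2, and 10.25 and 10.29 in IDE2+FGF10. The IDE2+FGF2 arrays stood far above all others, and no group overlapped another. Dusp4 was 13.4-fold higher in IDE2+FGF2 than in IDE2 and 6.88-fold lower in IDE2+FGF10 than in IDE2+FGF2, and Dusp6, a cytoplasmic ERK phosphatase, was 3.80-fold lower in IDE2+FGF10 than in IDE2+FGF2. Of 5 tested AU-rich element binding protein genes, Tia1 fell 4.40-fold in IDE2+FGF10 against IDE2. Cytoskeletal targets of SRF and its MRTF partners rose against ES almost throughout, 8 of 9 in IDE2, 9 of 9 in IDE2+FGF2 and 8 of 9 in IDE2+FGF10, where 23.1%, 17.8% and 22.2% of all genes rose. Their medians were 2.36, 2.82 and 2.56, beside −0.01 over all genes in each. Acta2, smooth muscle actin, led them with 209-fold, 191-fold and 156-fold.

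As a list, stress genes were higher in IDE2+FGF10 than in IDE2 and IDE2+FGF2, but not higher than in ES. Of 9 tested heat shock and stress genes, 4 rose and 1 fell in IDE2+FGF10 against IDE2 (all genes 4.13% and 9.76%), and 5 rose and 1 fell against IDE2+FGF2 (2.6% and 4.71%). The list medians were 1.34 and 1.23, beside 0.06 and 0.000106 over all genes. Relative to ES, 3 rose and 2 fell in IDE2+FGF10 (all genes 22.2% and 22.8%), with a median of −0.02. In IDE2, 1 rose and 5 fell relative to ES (all genes 23.1% and 22.2%), with a median of −1.71. Hspa1a, the inducible heat shock protein 70, measured 8.29 and 8.08 in ES, 5.20 and 6.27 in IDE2, 7.80 and 8.36 in IDE2+FGF2, and 10.95 and 10.89 in IDE2+FGF10. Ddit3, the stress factor CHOP, measured 6.81 and 6.53 in ES, 8.30 and 6.55 in IDE2, 8.96 and 8.83 in IDE2+FGF2, and 11.22 and 11.29 in IDE2+FGF10. The IDE2+FGF10 arrays were the highest for both genes, 36.4-fold (Hspa1a) and 14.2-fold (Ddit3) above IDE2. Hsp90aa1 fell 2.60-fold in the same comparison. The part of a stress or handling response in the changes of the immediate-early genes was not tested.

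Cell type markers differed between the groups as well. The 9 pluripotency markers summed to a linear intensity of 130470 to 143400 in ES, 27779 to 51061 in IDE2, 76185 to 82780 in IDE2+FGF2 and 45730 to 45733 in IDE2+FGF10, and Pou5f1, which marks pluripotent cells, was 36.6-fold below ES in IDE2, 7.18-fold in IDE2+FGF2 and 27.8-fold in IDE2+FGF10. Dppa5a was the brightest of the 9 on every array and weighs most in these sums. The 11 mesenchyme and fibroblast markers summed to 2857 to 2987 in ES and to 37879 to 53235 in the treated groups, with Postn detected on no array. The 7 endoderm and simple epithelium markers summed to 3679 to 3686 in ES and 26800 to 27432 in IDE2. Their sums were 18465 to 28137 in IDE2+FGF2 and 36301 to 39667 in IDE2+FGF10. Krt8 was the brightest of the tested markers on every array and weighs most in these sums. Mean levels in IDE2 and IDE2+FGF10 were 8.06 and 6.74 for Sox17 and 6.89 and 5.50 for Cxcr4. Of the 6 tested markers, 1 rose and 2 fell in IDE2+FGF10 against IDE2 (all genes 4.13% and 9.76%). Foxa2, a defining endoderm factor, was detected on none of the 8 arrays. Neural markers summed to 1256 to 1614 in ES and 2218 to 3143 in the treated groups, with Pax6, Tubb3 and Sox1 undetected. Endothelium and blood markers, with Cdh5 and Gata1 undetected, summed to 1224 to 1314 in ES, 256 to 282 in IDE2, 1537 to 1663 in IDE2+FGF2 and 357 to 400 in IDE2+FGF10. Macrophage and leukocyte markers, with Ptprc and Tyrobp undetected, summed to 12103 to 12139 in ES and 999 to 2521 in the treated groups. Only 1 marker of that list was tested, Laptm5, at a log2 level of 13.55 on both ES arrays. This sum therefore mostly describes Laptm5 and does not show such cells in ES. In bulk RNA, fewer cells of a type and less RNA per cell cannot be told apart, and the part of cell composition in the changes above was not tested.

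Genes with the most similar pattern over the 8 arrays were found by the root mean square difference of centred log2 levels, among genes with at least a comparable spread. For Fos they were Pgm1 (0.18), Rsph3a (0.19) and Osbpl6 (0.24). For Jun they were Cdc42ep2, Cmtm4 and Coa8, for Junb Slc16a3, H1f10 and Nabp2, and for Egr2 Kynu (0.57), Cbln1 and Tmem132c. For Ier3 they were Hspb2 (0.40), Gng13 and Aldoc, for Klf6 Rhoj, Spire1 and Tdrd12, and for Zfp36 Phox2a, Ifi30 and Unc93b1. For Egr1 they were Pithd1, Tbl2 and Mtmr3 and for Dusp1 Tbl2 (0.22), Sphk1 and Kcnc4, so Tbl2 was near both. For Egr3, mostly undetected, they were Zfp367, Sh3rf3 and Ankrd13b. None of the 10 genes was among the nearest of another.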

How the data were processed

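Trizol-extracted, DNase-treated RNA was labelled as biotinylated cRNA, per the labels' protocols. The deposited values of a probe are, per the file headers, a mean intensity over its beads on a linear scale, from BeadStudio (version not stated), with no background subtraction or normalization. The deposited bead count and detection p-value accompany each probe, per the file headers. The method behind a second deposited table of intensities is not given in the sources used here, and it served as an alternative.

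Probe names came from the platform annotation: 23978 of 25697 probes had 1 gene, 0 had several and 1719 had none. Background correction, quantile normalization and log2 transformation used the neqc function (offset 16) of the R package limma (R 4.3.3, limma 3.58.1). The detection filter asked for a p under 0.05 on 2 or more arrays and left 14502 probes, and the probe with the highest mean stood for its gene (9915 genes). One limma model with a mean per group was fitted to all 8 arrays (residual df 4, prior df 6.64), with Benjamini-Hochberg adjustment over all genes and a threshold of 0.05. Errors are standard errors of that model. A fold against a group in which a gene was undetected on both arrays is a lower bound, set from the lowest detected signal. No 2 arrays held identical signals. On data simulated for IDE2+FGF10 against IDE2 over 9915 genes, 3.03% of true log2 changes of 1, 83.3% of 2 and 98.2% of 3 were called. The numbers of changed genes were 66, 78 and 56, and 11 unchanged genes were called too. Few genes were changed, and each had the same spread in all groups. The real comparison differs in both, with 13.9% of genes passing, so these shares do not carry over to it.

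The 10 genes and the gene lists were chosen with earlier results of these data known. Named besides the 10 were the 2 largest passing rises and falls of each list in a comparison and a fixed set of related genes. Alternatives covered background correction, scaling, the second table, detection filters, probe choice, an intensity trend, array weights, a replicate block, fits of 2 groups alone and leaving out arrays. The number of arrays limits the precision. Promoter sequences are those of RefSeq, build GRCm38.p6.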

Additional observations from a re-analysis of the deposited data

How the results depend on the processing

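Over 20 alternatives, the 60 log2 changes of the 10 genes kept direction and side of the threshold 1023 times, gained a call 65 times, lost one 85 times and reversed 21 times. None of the 21 reversals touched a change that had passed. Passing in all 20 were Fos against ES in the 3 treated groups, Junb and Egr2 in IDE2, Klf6 in IDE2+FGF2, Jun, Egr2 and Ier3 in IDE2+FGF10 against ES, and Egr2 in IDE2+FGF2 against IDE2 and between the FGF groups. The cause was not tested in any case. Of the 10 genes against ES in IDE2+FGF10, 10 passed with array weights, 9 in a fit of only the arrays of the 2 groups and 9 without both the IDE2 and IDE2+FGF2 second replicates. In IDE2+FGF2 against IDE2, 5 passed without background correction and in the second deposited table, and 1 passed with array weights; over all genes, 489 passed with no detection filter, 73 with array weights, 254 with only the 2 groups and 335 without both second replicates. In IDE2+FGF10 against IDE2, 898 genes passed with array weights, and limma on only the 2 groups called 0 of all genes and 0 of the 10 (2828 and 8 at an unadjusted p under 0.05). In IDE2+FGF10 against IDE2+FGF2, 1373 genes passed with median scaling, 382 with only the 2 groups and 2264 without both second replicates, when 6 of the 10 passed; in IDE2+FGF2 against ES, 5318 genes passed without both. Leaving out 1 array, or both second replicates, gave 3 to 7 of the 10 genes and 2807 to 5490 of all genes in IDE2 against ES, 2 to 6 and 1800 to 5318 in IDE2+FGF2 against ES, 4 to 9 and 2868 to 6418 in IDE2+FGF10 against ES, 1 to 4 and 105 to 2407 in IDE2+FGF2 against IDE2, 0 to 8 and 1 to 3262 in IDE2+FGF10 against IDE2, and 1 to 6 and 69 to 2264 between the FGF groups. Median scaling moved the median of all genes by −0.21, −0.18 and −0.27 in the IDE2+FGF10 comparisons with ES, IDE2 and IDE2+FGF2 and gave 1589 higher and 2889 lower, 194 and 1410, and 136 and 1237 genes there, beside 2206 and 2265, 409 and 968, and 258 and 467; in IDE2+FGF2 against IDE2 it gave 515 and 311 beside 367 and 377. Under it, Klf6 against ES (−0.000302), Junb (−0.32) and Egr1 (−0.052) between the FGF groups reversed. The other reversals came with arrays left out: in IDE2 against ES, Egr3 ran from −0.62 to 0.11 and Ier3 from −1.18 to 0.43; in IDE2+FGF2 against ES, Junb from −2.34 to 0.030, Egr2 from −0.11 to 0.58 and Egr3 from −0.70 to 0.017. In IDE2+FGF2 against IDE2, Jun ran from −0.91 to 0.45 and Egr3 from −0.37 to 0.21. Between the FGF groups, Junb ran from −1.01 to 1.35, Egr3 from −0.58 to 0.015, Zfp36 from −0.65 to 0.31 and Dusp1 from −0.011 to 0.64. The replicate numbers did not pair the arrays (correlations of deviations −0.07 to 0.01), and with them as a block 5, 4, 5, 3, 7 and 3 of the 10 genes passed in the 6 comparisons, the call of Zfp36 in IDE2+FGF2 against ES being the one lost.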
